A study of Mus musculus with 10 samples.

Results

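The miR-34 and miR-449 family was followed through the small RNA of the RPE/choroid/sclera, that is the pigment epithelium, the choroid with its vessels and the sclera, behind the neural retina. Members were taken by name: mmu-miR-34a-5p, mmu-miR-34b-5p, mmu-miR-34b-3p, mmu-miR-34c-5p, mmu-miR-34c-3p, mmu-miR-449a-5p, mmu-miR-449b and mmu-miR-449c-5p, written below without the species prefix. Of these 8 names, 7 had a row among the 1340 mature miRNAs of the deposited table, and miR-449b was not analysed here. The tissue is named as the tissue label gives it, while the extract protocol in the labels writes of retinae, so neural retina in the samples cannot be told from the labels. The 10 libraries came from 5 right and 5 left eyes of C57BL/6J mice, wild type, taken at postnatal day 34. From postnatal day 24, one eye of every animal was behind a goggle with a -20 dioptre lens for 10 days, and its contralateral eye had no lens. The labels name the side, and the titles a number that a right and a left library share (61, 64, 65, 66 and 68), while the lens eye is not named. Right eyes were therefore compared with left eyes, which would weaken or hide an effect of the lens if it was worn on the right by some animals and on the left by others. No label says in so many words that the 5 numbers are 5 animals. With the number as a block, the p-values measure the spread of right minus left differences over these 5 numbers, and not over known animals.

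MicroRNAs are cut from both arms (5p and 3p) of a hairpin, and the loaded arm pairs with mRNAs mainly through its seed, bases 2 to 8. The 5p arms of this family carry one seed and share targets that drive the cell cycle or block apoptosis. miR-34a is a direct transcriptional target of p53, is widely expressed, and in cultured human pigment epithelium restrains growth and migration. miR-34b and miR-34c are made from one transcript and are known, with the miR-449 cluster, for their high levels in testis and in multiciliated epithelia, where they are needed for motile cilia.

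The mature sequences show what the members share beyond their names. RefSeq (GRCm38.p6) held 6 of the 7 measured members, printed 5′ to 3′ with the seed in capitals, first the 5p arms and then the 3p arms of the miR-34b/c pair.
miR-34a-5p: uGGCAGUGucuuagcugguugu
miR-34b-5p: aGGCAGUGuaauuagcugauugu
miR-449a-5p: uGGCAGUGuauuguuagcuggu
miR-449c-5p: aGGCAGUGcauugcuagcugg
miR-34b-3p: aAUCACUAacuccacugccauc
miR-34c-3p: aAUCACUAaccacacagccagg
The 4 printed 5p arms hold one seed, and no other of the 1135 miRNAs of the table with a RefSeq sequence had it. The 3p arms of miR-34b and miR-34c have a second seed, again found in no other such miRNA. miR-34c-5p, the measured member without a RefSeq sequence, was not compared. Among the printed sequences, over the whole length, miR-34a-5p was closest to miR-34b-5p, with 19 identical bases in 23 aligned columns. In the same way miR-449a-5p was closest to miR-449c-5p, with 18 in 22. The arms miR-34b-3p and miR-34c-3p had 17 identical bases in 22 aligned columns.

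The family lies at 3 places of the mouse genome (GRCm38). miR-34a-5p lies at chr4:150068473-150068494 on the plus strand, inside no other annotated gene of GENCODE vM21. The miR-34b/c pair is on the minus strand of chromosome 9, opposite an intron of Btg4. There miR-34b-5p is at chr9:51103610-51103632, miR-34b-3p at chr9:51103574-51103595, miR-34c-5p at chr9:51103076-51103098 and miR-34c-3p at chr9:51103044-51103065. Between the arms miR-34c-5p and miR-34b-3p lie 475 bases. miR-449c-5p (chr13:113036008-113036028) and miR-449a-5p (chr13:113037549-113037570) sit on the plus strand in an intron of Cdc20b, a gene of multiciliated cells, with 1520 bases between them.

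Values are the authors' normalised signal, with near-equal totals in all libraries. Of the 141 highest ranks, 139 held 10 values within 1 percent of their mean of each other, so an abundant miRNA takes the step of its rank, and read depth cannot be known. As a check of the tissue, the pigment epithelium miRNAs miR-204-5p and miR-211-5p summed to 1959 to 1989 k (k for 1000 units of signal) in right and 1969 to 1989 k in left eyes. miR-204-5p had the same mean log2(signal + 1) on both sides, 20.9. With rank steps, these sums show presence and cannot show like amounts. The 5 retina and neuron miRNAs were also present, with 189 to 1330 k in right and 263 to 473 k in left eyes. The highest of these sums was in right eye 68, which stands apart. On average these sums rest mostly on miR-182-5p, with a mean log2(signal + 1) of 18.2 in right and 18.0 in left eyes. The 9 surface epithelium miRNAs summed to 32.9 to 214 k in right and 72.5 to 254 k in left eyes.

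miR-34c-5p was the leading member, with ranks of 128 to 141 of the 1340 miRNAs. Its signal was 1929, 2059, 1659, 1929 and 1659 in the right eyes and 1752, 2028, 1618, 1929 and 1524 in the left eyes of numbers 61, 64, 65, 66 and 68. On both sides number 64 was highest, the sides overlapped, and the eyes of number 66 held one identical value. The mean was 1847 ± 179.8 in right and 1770.05 ± 209.5 in left eyes (SD, n = 5 each). Only 7 different values occurred over the 10 libraries, as libraries share rank steps.

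miR-34a-5p, the p53-induced member, came second. Its signal was 332, 486, 317, 238 and 225 in right eyes and 351, 376, 329.8, 351 and 272 in left eyes, in the same order of numbers. The right eye of number 64 was the highest of the 10 libraries and the right eyes of numbers 66 and 68 the lowest, so the right eyes spanned the left ones. The mean was 319.5 ± 104 in right and 336 ± 39.1 in left eyes (SD, n = 5 each). The other arm of its hairpin, miR-34a-3p, was listed at 0 in 5 libraries and reached 2.53 at most. The hairpin is shown because the 2 arms, in capitals, differ so much in signal.
Mir34a, chr4:150068454-150068555, plus strand: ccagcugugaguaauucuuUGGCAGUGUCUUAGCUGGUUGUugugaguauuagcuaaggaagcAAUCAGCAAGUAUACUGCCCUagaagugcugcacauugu

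The remaining members had low signals. miR-34b-3p stood at 61.5, 39.3, 56.6, 62.1 and 57.5 in right eyes and 47.7, 50.03, 65.3, 69.7 and 49.5 in left eyes. Right eye 64 was the lowest, in contrast to its place for miR-34c-5p and miR-34a-5p. The partner arm of the leading member, miR-34c-3p, stood at 32.5, 28.9, 20.5, 23.6 and 14.2 in right eyes and 28.5, 26.5, 34.9, 50.5 and 16.4 in left eyes. Both eyes of number 68 were the lowest on their sides, and left eye 66 was the highest library.

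miR-449a-5p, the member of the Cdc20b intron with signal in every library, had 20.2, 15.03, 9.80, 17.9 and 25.9 in right eyes and 20.1, 11.7, 16.6, 19.9 and 7.63 in left eyes. Number 68 held both the highest and the lowest value. miR-34b-5p had 7.83, 11.7, 3.59, 3.55 and 17.9 in right eyes and 8.18, 11.6, 9.80, 23.6 and 26.5 in left eyes. The right eyes of numbers 65 and 66 were the lowest libraries, and left eyes 66 and 68 the highest. miR-449c-5p was listed at 0 in 7 libraries, at 0.222 in right eye 68, and at 1.6 and 1 in left eyes 61 and 66. It was the 1 measured member below the mean signal of 10 that the test required, so 6 of the 7 entered it.

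**Figure D1:**
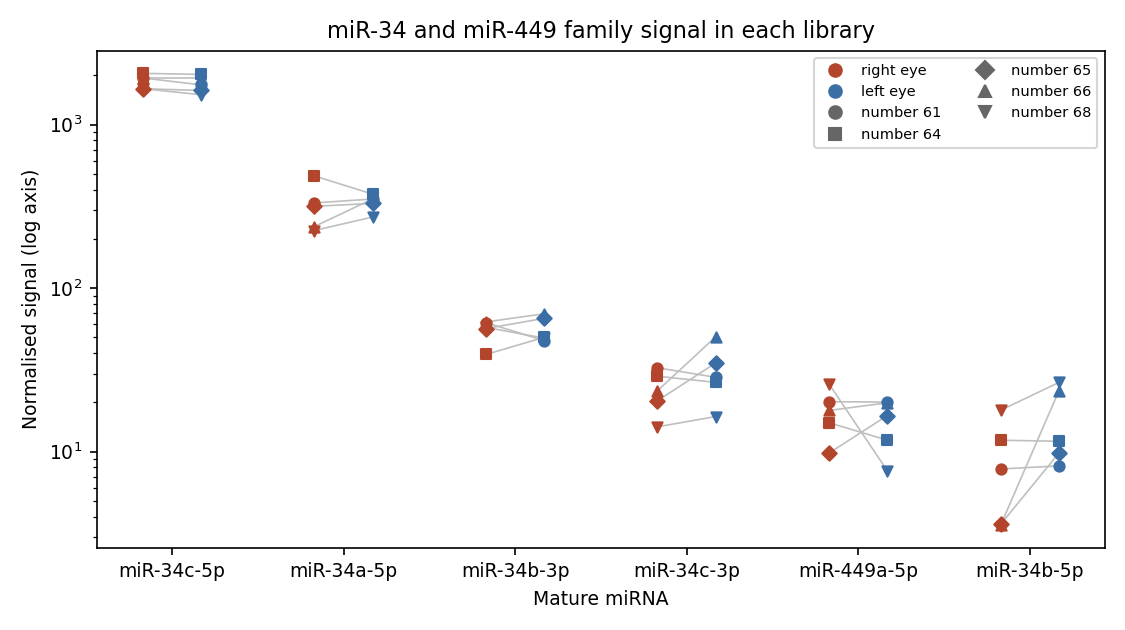
Normalised signal (log axis) of the 6 tested members in each library, right eyes in red and left eyes in blue, one marker shape for each number and a grey line between the eyes of a number. miR-34c-5p lies between 1524 and 2059 and miR-34a-5p between 225 and 486, above the other members in every library, while miR-34b-5p spreads most, between 3.55 and 26.5.

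The order of levels was partly fixed and partly not. Mature members are 21 to 23 bases long, so signals were set side by side without length scaling. miR-34c-5p exceeded miR-34a-5p in all 10 libraries, by 4.24 to 8.10 times, and miR-34a-5p exceeded miR-34b-3p in all 10, by 3.83 to 12.4 times. miR-34b-3p was above miR-34c-3p in all 10 libraries as well, although their ranges overlapped (a median ratio of 1.89). Below these, the order did not hold: miR-34c-3p was above miR-449a-5p in 9 of 10 libraries, and miR-449a-5p above miR-34b-5p in 8 of 10. The 5 measured 5p arms summed to 2193 ± 257 in right and 2138 ± 244.7 in left eyes (SD, n = 5 each), 0.0182% of all signal. miR-34c-5p made up 83.6 ± 2.23% of that sum and miR-34a-5p 15.05 ± 2.34% (SD, n = 10 libraries of 5 numbers). The other 3 arms together made up 1.37 ± 0.507%.

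In signal, opposite arms led in the pair made from one transcript. In every library miR-34b had more 3p than 5p, by 1.87 to 17.5 times with a median of 5.08, while miR-34c had more 5p than 3p, by 38.2 to 117 times with a median of 73.8. The log2 ratio of 5p over 3p, with 1 added to each signal, was -2.71 ± 1.04 in right and -1.89 ± 0.70 in left eyes for miR-34b. It was 6.26 ± 0.34 in right and 5.85 ± 0.50 in left eyes for miR-34c (SD, n = 5 each). Averaged over the eyes of each number, miR-34c exceeded miR-34b by 8.36 ± 0.45 on this scale (SD, n = 5 numbers), with a range over numbers of 7.87 to 9.02. The direction held in 10 of 10 libraries, and the exact two-sided sign-flip permutation over the 5 numbers gave p = 0.0625, the smallest that 5 numbers allow. Any 5 differences of one sign give this value, so it adds nothing to the shared direction. Among the 158 hairpins with both arms kept, 90 had the higher 5p and 68 the higher 3p arm, and miR-34c stood 26th and miR-34b 112th counted from the most 5p-sided one.
Mir34b, shown for its weaker 5p and stronger 3p arm in capitals, chr9:51103562-51103645, minus strand: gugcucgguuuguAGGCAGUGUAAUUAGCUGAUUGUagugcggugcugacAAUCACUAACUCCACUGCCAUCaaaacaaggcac

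**Figure D2:**
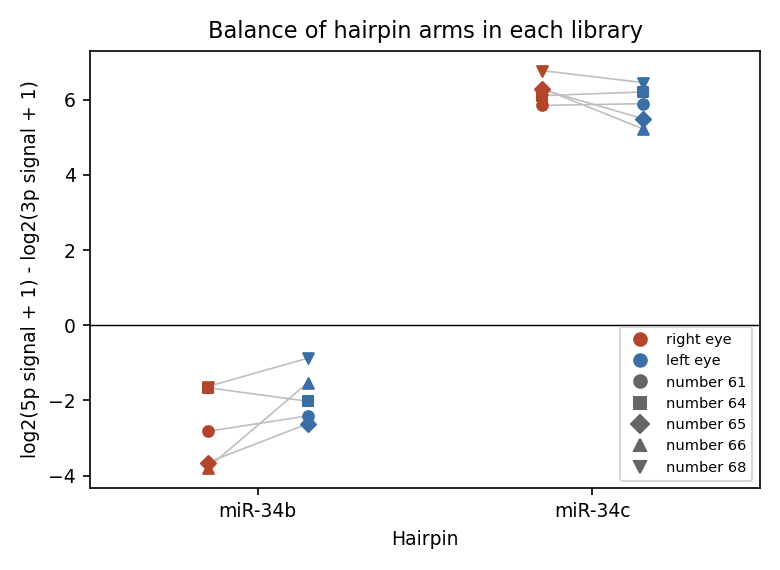
Log2 of 5p over 3p signal for miR-34b and miR-34c in each library, right eyes in red left of the left eyes in blue, one marker shape for each number, with a line at equal arms. All 10 libraries lie below the line for miR-34b and all 10 lie above it for miR-34c.

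Neither balance of arms passed the test between sides. The log2 ratio in right minus left eyes was -0.82 for miR-34b, with a standard error of 0.35 (unadjusted p = 0.0517, adjusted p = 0.792 in limma). For miR-34c it was 0.40, with a standard error of 0.20 (unadjusted p = 0.0913, adjusted p = 0.792 in limma). None of the 158 hairpins passed in limma (0% called). Without number 66 the difference of miR-34b was -0.46, and that of miR-34c was 0.24. Leaving out number 64 instead gave larger differences, -1.12 for miR-34b and 0.53 for miR-34c.

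The right eyes were then compared with the left for each member by limma on log2(signal + 1), with the number as a block. Fold changes on that scale understate those of the low members. None of the 6 members passed an adjusted p of 0.05, nor did any of the 588 miRNAs tested (0% called), and none of the 6 had an unadjusted p under 0.05, where 2.21% of all tested miRNAs did. Members with a lower fitted mean in right eyes numbered 4 of 6, and 45.7% of all tested miRNAs were on that side. The median log2 fold change of the 6 was -0.07, beside 0.02 over all 588. In all 5 right eyes no member was lower (0.85% of those tested were) and none was higher (2.04%). The right and left values overlapped for each of the 6 (0.17% of all tested did not overlap).

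The members with the highest signal had the narrowest intervals. The log2 fold change of miR-34c-5p, right over left, was 0.06 with a standard error of 0.07 (adjusted p = 0.967 in limma), and it was higher in 4 right eyes and tied in 1. Its 95% interval ran from 0.931-fold to 1.17-fold. For miR-34a-5p it was -0.12 with a standard error of 0.14 (adjusted p = 0.967), lower in 4 of 5 right eyes, and the interval ran from 0.731-fold to 1.16-fold. Without number 66 that value was -0.01, and without number 64 it was -0.24. For miR-34b-3p it was -0.03 with a standard error of 0.16 (adjusted p = 0.985) and an interval of 0.761-fold to 1.27-fold, and it changed sign with numbers 64, 65 or 66 left out. These intervals rest on values with rank steps, which can hold an abundant miRNA in place.

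The largest difference of the family was that of miR-34b-5p, with 8.92 ± 6.07 in right and 15.9 ± 8.47 in left eyes (SD, n = 5 each). Its log2 fold change of -0.85 had a standard error of 0.42 and did not pass (unadjusted p = 0.0817, adjusted p = 0.967 in limma). It was lower in the right eyes of numbers 65, 66 and 68 and about equal on both sides in numbers 61 and 64. The interval of 0.28-fold to 1.10-fold includes a fall beyond 2-fold as well as no difference. Without number 66 the log2 fold change was -0.45, and without number 64 it was -1.07. With a pseudocount of 10, which shrinks fold changes of low signals, it was -0.45, and with a pseudocount of 0.1 it was -0.945. In number 66 the surface epithelium miRNAs summed to 32.9 k in the right and 210.1 k in the left eye. In some other libraries the sum and miR-34b-5p went apart. Left eye 68, with the highest miR-34b-5p, had the lowest sum of the left eyes, 72.5 k. Left eye 64 had the highest sum, 254 k, with a miR-34b-5p of 11.6. This sum mostly follows miR-184-3p, with a mean log2(signal + 1) of 16.2 in right and 16.9 in left eyes, where none of the others exceeded 13.4. Among the 9, miR-200a-3p had its own highest value in left eye 68, at 1159, and miR-429-3p had its own in left eye 66, at 585. miR-200a-3p was also at 904 in right eye 61, where miR-34b-5p was 7.83. In number 61 the sum was 165 k in the right and 120.2 k in the left eye. Over all numbers that sum was lower in 4 of 5 right eyes, with all 9 of its miRNAs above 0 in each library, and its part in the difference of miR-34b-5p was not tested. In a tissue of several layers, fewer cells of a type and less RNA per cell cannot be told apart.

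The other low members did not pass either. miR-34c-3p had a log2 fold change of -0.34 with a standard error of 0.24 (adjusted p = 0.967 in limma), which was -0.16 without number 66. miR-449a-5p had 0.22 with a standard error of 0.36 (adjusted p = 0.967), with an interval of 0.652-fold to 2.09-fold. Without number 68 its direction turned, with -0.13. The right eye of that number had the highest miR-449a-5p, 25.9, beside the highest sum of retina and neuron miRNAs, 1330 k, and whether the 2 are linked was not tested.

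**Figure D3:**
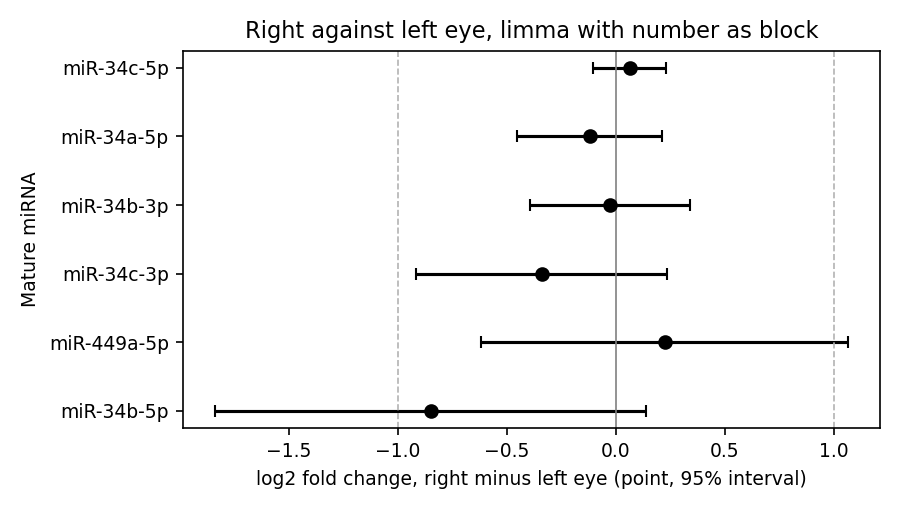
Log2 fold change of right over left eyes for the 6 tested members (point) with its 95% interval from limma, dashed lines at a 2-fold difference either way. All 6 intervals include 0, and those of miR-34b-5p and miR-449a-5p reach past a 2-fold difference.

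For the 3 members with the highest signal the means of the numbers spanned more than the widest gap within a number, and for the other 3 tested members they spanned less. For miR-34c-5p the means of the numbers spanned 452 signal units, from 1591 in number 68 to 2044 in number 64, where the eyes of one number were at most 177 apart. For miR-34a-5p the span was 182, again with number 68 lowest (249) and number 64 highest (431), and the largest gap was 113. For miR-34b-3p the span was 21.3 and the largest gap 13.7, but here number 64 was lowest, with 44.7. The order was the other way for miR-34b-5p (a span of 15.5 and a largest gap of 20.02), miR-34c-3p (21.7 and 26.9) and miR-449a-5p (6.93 and 18.3). Differences between numbers were not tested.

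The spread over the 10 libraries, as the SD of log2 signal, was 0.15 for miR-34c-5p, 0.24 for miR-34b-3p and 0.32 for miR-34a-5p. It was 0.51 for miR-449a-5p, 0.52 for miR-34c-3p and 0.89 for miR-34b-5p. The median over the 249 tested miRNAs with a mean signal of 10 to 100 was 0.44, over the 180 with 100 to 1000 it was 0.29, and over the 159 with more it was 0.21. Of the members, miR-34b-5p thus lay furthest above the median of its band of signal, and miR-34b-3p lay below the median of the same band. That band is wide, with mean signals of 12.4 for miR-34b-5p and 55.9 for miR-34b-3p. Its median is therefore not that of miRNAs at either signal.

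Members made from one transcript were not each other's nearest profiles. Likeness was measured as the root mean square difference of log2 signal after each miRNA's own mean over the 10 libraries was taken off, and a small value means alike. Between miR-34b-3p and miR-34c-5p it was 0.29, and of the 582 tested miRNAs outside the family 143 were closer to miR-34b-3p and 225 closer to miR-34c-5p. The medians of these 582 were 0.39 from miR-34b-3p and 0.34 from miR-34c-5p, so the pair was closer than the median. Between the arms of miR-34c it was 0.43, with 395 of 582 closer to miR-34c-5p but 97 closer to miR-34c-3p. Between the arms of miR-34b it was 0.89, with 547 of 582 closer to miR-34b-3p but 219 closer to miR-34b-5p. The smallest value between members was that of miR-34a-5p and miR-34c-5p, from different chromosomes, at 0.26. Of the 582, 81 were closer to miR-34a-5p and 172 closer to miR-34c-5p. A noisy low signal enlarges this measure for the weaker arms.

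Outside the family, the profile most like that of miR-34b-5p was miR-200a-3p (0.48), then miR-429-3p (0.50) and miR-33-5p (0.60), where the median over 582 miRNAs was 0.92. miR-200a-3p and miR-429-3p are made from one cluster and mark epithelial cells. miR-200a-3p had 904, 521, 191, 266 and 761 in right eyes and 452, 1025, 841, 969 and 1159 in left eyes. Right eyes 65 and 66 were the lowest libraries for both, as for miR-34b-5p, and left eye 68 was the highest for miR-34b-5p and miR-200a-3p. miR-33-5p was also lowest in these right eyes, at 61.5 and 58.3. All of these were picked for likeness to miR-34b-5p over the same 10 libraries, so shared low libraries follow from that choice.

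**Figure D4:**
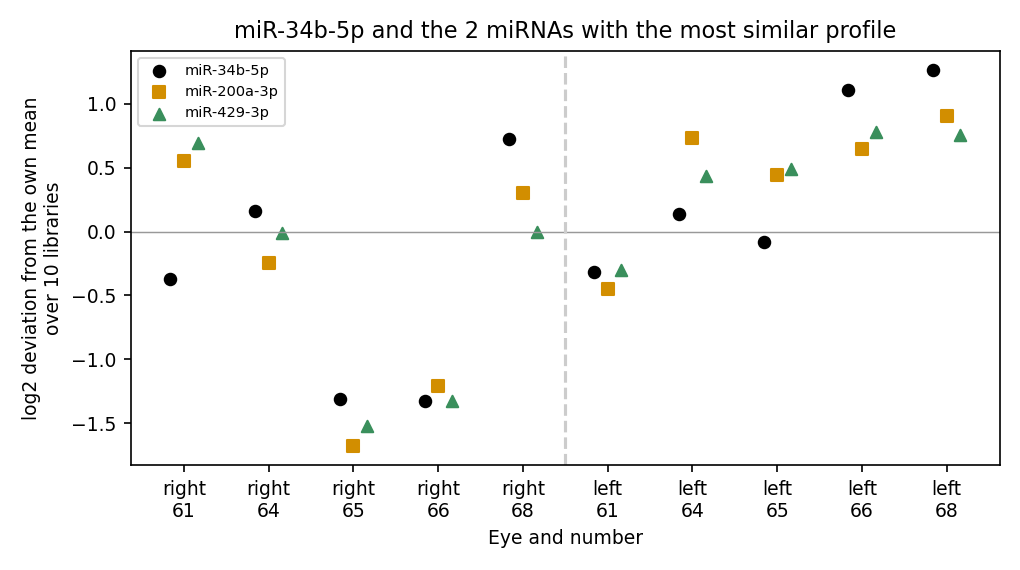
Log2 deviation of miR-34b-5p, miR-200a-3p and miR-429-3p from their own mean over 10 libraries, right eyes first and left eyes after the dashed line. All 3 lie lowest in right eyes 65 and 66, while in right eye 61 both epithelial miRNAs lie above their mean and miR-34b-5p below it. miR-200a-3p and miR-429-3p were picked as the nearest profiles of miR-34b-5p over these same libraries.

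The nearest profiles of the other members came from several families. For miR-34c-5p they were let-7f-5p (0.09), miR-151-5p (0.10) and miR-130a-3p (0.11), and for miR-34a-5p miR-30c-2-3p (0.10), miR-92a-3p (0.12) and miR-324-5p (0.13). miR-34b-3p was nearest to miR-22-3p (0.18), miR-21a-5p (0.18) and miR-674-3p (0.18). miR-34c-3p was nearest to miR-669c-5p (0.21), miR-330-3p (0.27) and miR-221-3p (0.30), and miR-449a-5p to miR-431-3p (0.29), miR-700-3p (0.34) and miR-132-5p (0.34). All these are over 10 libraries and are descriptions of likeness only.

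Other miRNAs listed as linked to p53 were set beside the family. All 17 on the list were tested and none passed in limma, with 9 lower and 8 higher in right eyes, a median log2 fold change of -0.03 and 1 unadjusted p under 0.05. Over all 588 miRNAs 45.7% were lower, the median was 0.02 and 2.21% had an unadjusted p under 0.05. The 3 most abundant were miR-22-3p with -0.09, miR-143-3p with 0.02 and miR-125b-5p with 0.03. The lowest unadjusted p was that of miR-141-3p, an epithelial miRNA of the miR-200 group with 130.1 ± 86.4 in right and 222 ± 63.9 in left eyes (SD, n = 5 each). Its unadjusted p was 0.0404 and its adjusted p = 0.967 in limma, and it was singled out once the values were known. It is also among the surface epithelium miRNAs above.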

How the data were processed

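Small RNA was sequenced from 10 libraries with the TruSeq small RNA kit, per the labels' protocols. Per the submitters' processing notes, the authors used Bowtie and Partek (versions not stated) and the build GRCm38 (mm10). The deposited values are a normalised signal, and how it was normalised is not given in the sources. Of the values above 0, 7.31% are whole numbers within 0.001, so no count model was used, the depth is unknown and no counting interval is given. The deposited stop lies 1 base past the RefSeq end in all 1133 rows matched by name, chromosome and start, and ends are printed as RefSeq has them.

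The 588 miRNAs with a mean of at least 10 were analysed as log2(signal + 1) in limma 3.58.1 (R 4.3.3). The model had the number as a block and a trend of variance on mean. Tests were two-sided, and p-values were adjusted by Benjamini-Hochberg over all 588 miRNAs, or over 158 hairpins for the arms, with a threshold of 0.05. The fit was checked on simulated data. The pairing comes from the shared title number and the protocol's contralateral eye. As a check, each library's deviations from the mean of its side were correlated, across miRNAs, with those of the other eye of its number, at 0.12, 0.45, 0.01, -0.13 and 0.28. Of the right eyes, 1 of 5 was most like the left eye of its own number, so this check does not establish a pairing. Sequences were aligned globally in Biopython 1.88 (match 1, mismatch 0, gap -1).

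The members and lists were chosen with earlier results of these data known. Named miRNAs are all members, their other arms, the 3 nearest profiles of each tested member, and the most abundant or called p53-linked miRNAs. Outside that rule, miR-204-5p and miR-211-5p are named as tissue markers, and miR-182-5p and miR-184-3p for their weight in the marker sums. miR-141-3p and miR-377 are named for their values. Other pseudocounts, filters, scalings, no block, no trend and leaving out each number were tried.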

Additional observations from a re-analysis of the deposited data

Results flagged for a closer look

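Each tested member and both arm ratios were checked for a single eye set apart within its side, in log2 units, in 16 groups of 5 eyes, of which chance flags about 1 in 20. The signal of 39.3 of miR-34b-3p in right eye 64 was the 1 value so far apart, below the 56.6 to 62.1 of the other right eyes.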

How the results depend on the processing

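For the 6 members and 2 arm ratios, 94 of 98 values under another setting kept their direction, and none of the 98 passed the threshold. Leaving out a number gave 40 of these values, of which 36 kept their direction. The other settings gave 58, and many of those could not turn. A change of filter, block or trend leaves the fold change itself as it was, and equal medians leave the arm ratios as they were. The 4 that turned direction came from leaving out a number. The log2 fold change of miR-34b-3p became 0.051 without number 64, 0.02 without number 65 and 0.0068 without number 66, and that of miR-449a-5p -0.13 without number 68. Over single numbers left out, the values ran from -0.12 to 0.051 for miR-34b-3p, from -0.13 to 0.46 for miR-449a-5p and from -1.07 to -0.45 for miR-34b-5p. The count of miRNAs past the threshold was 0 under all 13 other settings, and that of hairpins was 0 except without number 61, where it was 1, miR-377, which is outside the family and is named here from its values. The cause was not tested. Without the replicate block the log2 fold change of miR-34b-5p was -0.85 with a standard error of 0.48 and adjusted p = 0.997 in limma, and the block changed no call. The filter at a mean of 100 left only miR-34a-5p and miR-34c-5p to test and neither arm ratio. No scaling turned a direction, and the median of all miRNAs was 0.02 under both scalings. As the deposited values already had near-equal totals and rank steps, this cannot tell how another normalisation of the reads would act. Quantile normalisation left the log2 fold change of miR-34c-5p at 0.06 and brought that of miR-34b-5p to -0.67. Without counts, the precision of the low members cannot be set by depth.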
